A study of Mus musculus with 12 samples.

Results

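The 10 genes described here encode proteins of the BCL2 family and were taken by name from the 41325 genes of the deposited tables: Bcl2, Bcl2a1b, Bcl2a1d, Bcl2l1, Mcl1, Bax, Bak1, Bcl2l11, Bbc3 and Pmaip1. Each name matched 1 row in both tables. RNA was sequenced from IMG cells, which are immortalised mouse microglia; microglia are the brain's own macrophages. All cells were wild type, of the C57Bl6/J strain and at 1 passage, and were treated for 8 h. The 3 groups of 4 libraries each are labelled Scramble, oAb and fAb. Both treatments are preparations of amyloid beta, the peptide of Alzheimer plaques. The series' design text pairs oAb with the word fibrillar and fAb with the word oligomeric, the reverse of the initials, so the groups keep their labels here, and which form each received cannot be told. The labels say nothing more of the scramble control. Nothing says that the libraries of a group came from separate cultures, and a single line limits what they sample, so the p-values speak to the variation among these libraries, part or all of which may be technical.

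BCL2 family proteins decide whether the outer mitochondrial membrane stays intact. Bcl2, Bcl2a1 (A1), Bcl2l1 (BCL-XL) and Mcl1 hold the membrane closed, the effectors Bax and Bak1 form the pores that release cytochrome c, and the BH3-only proteins Bcl2l11 (BIM), Bbc3 (PUMA) and Pmaip1 (NOXA) sense stress, block the survival proteins and, for some, engage the effectors. In myeloid cells, A1 is known as a survival gene that inflammatory signals induce through NF-kappa B, and Mcl1 is known for a short-lived protein. Only RNA was measured here, so protein, membrane permeability and cell death were not, and in bulk samples fewer cells expressing a gene and less RNA per cell cannot be told apart.

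Bcl2a1b and Bcl2a1d are near copies of each other, and this bears on how their counts can be read. In GENCODE M21, Bcl2a1b (ENSMUSG00000089929) lies on the plus strand at chr9:89199209-89207827 of mm10 and Bcl2a1d (ENSMUSG00000099974) on the minus strand at chr9:88723285-88731914. Their coding sequences of 516 bases differ at 6 bases (98.8% identical). Another copy, Bcl2a1a, differs from Bcl2a1b at 11 bases and from Bcl2a1d at 7. The first 100 coding bases of the 3 copies are shown because they hold 7 of the positions at which the copies differ, written in capitals.
Bcl2a1b: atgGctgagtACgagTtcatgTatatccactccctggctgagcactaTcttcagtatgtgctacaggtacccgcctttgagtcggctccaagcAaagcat
Bcl2a1d: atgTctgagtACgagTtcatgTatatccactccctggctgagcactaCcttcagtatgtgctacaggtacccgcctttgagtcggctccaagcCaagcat
Bcl2a1a: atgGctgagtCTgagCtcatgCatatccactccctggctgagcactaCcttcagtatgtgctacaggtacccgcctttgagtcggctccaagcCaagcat
Of the stretches of 50 bases in their transcripts, 79.2% of those of Bcl2a1b and 79.5% of those of Bcl2a1d also occur in another gene. In addition, 49.1% of the exonic bases of Bcl2a1b overlap those of Gm29094 on the same strand. The split of counts between these copies is therefore uncertain, and no source used here gives how the authors assigned shared reads.

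The stretches before the starts of both genes are near copies too, as RefSeq's promoter windows show (GRCm38.p6, the same build as mm10). They are shown because both genes rose in both treated groups, with matches to the AP-1 pattern TGANTCA in capitals. This pattern is a loose form of the element bound by Fos and Jun dimers, as it allows any base at the centre. The stretch of Bcl2a1b is chr9:89199023-89199208 on the plus strand and that of Bcl2a1d is chr9:88731915-88732100 on the minus strand, both outside annotated exons.
Bcl2a1b: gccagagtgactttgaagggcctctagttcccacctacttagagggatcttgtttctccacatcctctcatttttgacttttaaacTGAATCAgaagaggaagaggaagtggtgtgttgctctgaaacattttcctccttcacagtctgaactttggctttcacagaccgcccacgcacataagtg
Bcl2a1d: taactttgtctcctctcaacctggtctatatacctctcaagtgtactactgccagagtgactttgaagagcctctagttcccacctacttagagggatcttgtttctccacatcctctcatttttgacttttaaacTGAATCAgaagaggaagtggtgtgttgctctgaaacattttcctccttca
Both hold the AP-1 match in the same surrounding bases, and of 32851 promoter windows of 300 bases from all genes, 7.81% hold one on either strand. The printed stretches hold no match to the kappa B motif or to the interferon response motif, which occur in 50.8% and 3.44% of all windows. The rest of the window of Bcl2a1b holds 2 kappa B matches, at positions 0 and 1 from the RefSeq start, which overlap each other. Such matches are descriptions of letters and say nothing of binding.

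Library depth was similar across the groups, at 13638721 to 18124419 counts per library, with 13449 to 13948 genes counted. Scramble library 3 stood apart, with ribosomal protein genes taking 10.6% of its counts, where scramble 1, 2 and 4 had 6.37 to 6.73%. Both this share and that of mitochondrial genes were lower in every treated library than in every scramble library, at 4.73 to 5.30% for ribosomal protein genes and at 2.73 to 3.37% against 4.18 to 4.94% for mitochondrial genes. The near-identical pair Timm23 and Gm10273 split the libraries another way: Timm23 held 94.6 to 98.3% of the pair's counts in scramble 2, 3 and 4 and oAb 1 and 2, and 17.5 to 38.5% in scramble 1, oAb 3 and 4 and all fAb libraries. These are called the Timm23 and Gm10273 library sets below; the labels give no batch. Within-set values are given for Bcl2a1b, Bcl2l1, Bak1 and Bbc3. The Gm10273 set holds 1 scramble library, so values against scramble within it are given with no p, and since all fAb libraries are in that set, a fit of fAb with the set as a term also compares them with scramble 1 alone. All 10 microglia and macrophage markers were detected in every group, at a summed 3657 to 4622 normalised CPM, and T and B cell markers were at 0. The oligodendrocyte list, 3 of whose 5 markers were at 0, summed to 91.1 to 125 normalised CPM in scramble and 43.4 to 51.6 in the treated libraries, carried by Mbp. The neuron list, also with 3 of 5 at 0 and carried by Map2, summed to 0.942 to 3.51 and 10.0 to 12.8. The endothelial list (1 of 4 at 0, carried by Flt1) was at 1.59 to 3.66 in scramble and 17.4 to 23.9 in the treated libraries, and the fibroblast list (1 of 4 at 0, mostly Dcn) at 0 to 0.105 and 1.89 to 3.88. The part of these lists and shares in the results was not tested.

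In oAb, 6 of the 10 genes rose against scramble, 2 fell and 2 did not pass the test (edgeR quasi-likelihood test, Benjamini-Hochberg adjusted over all tested genes, threshold 0.05). All 10 passed the filter on low counts. For 7 of the 10 the oAb and scramble libraries did not overlap, beside 51.1% of all genes, and for 6 in fAb, beside 55.4%. Over all 11033 genes tested, 52.2% were called, 25.2% higher and 27% lower, so a call is common in this comparison and the sizes carry more than the counts. In fAb, 5 of the 10 rose, 2 fell and 3 did not pass, against a background of 56.3% of 11074 genes called, 27.6% higher and 28.8% lower. The median log2 fold change of the 10 genes was 0.81 in oAb and 0.66 in fAb, beside -0.07 and -0.04 over all genes tested. Both comparisons share the 4 scramble libraries, so their values are given side by side and are not independent of each other.

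**Figure D1:**
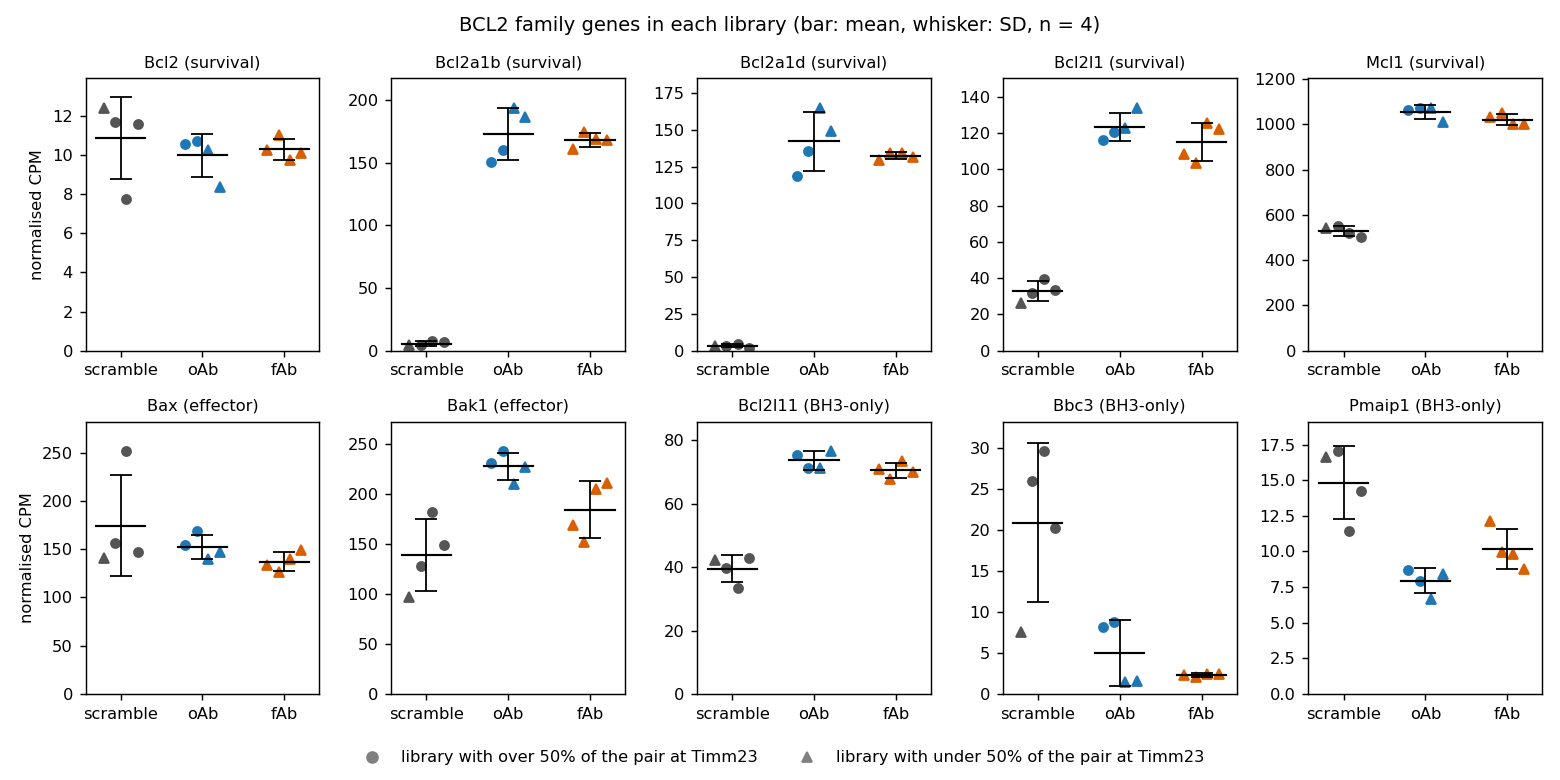
Normalised CPM (counts scaled to the TMM library size, y axis, linear from 0) of each of the 10 genes in the 12 libraries, grouped as scramble, oAb and fAb on the x axis. Points are libraries, with circles and triangles for the library sets, and bars and whiskers are the mean and SD over 4 libraries. Bcl2a1b, Bcl2a1d, Bcl2l1, Mcl1 and Bcl2l11 are separate from scramble in both treated groups, and Bbc3 follows the library sets within groups.

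Among the survival genes, the A1 copies changed most. Bcl2a1b was at 4.35, 4.28, 7.61 and 6.70 normalised CPM in scramble libraries 1 to 4, at 151, 161, 194 and 186 in oAb 1 to 4, and at 161, 175, 169 and 168 in fAb 1 to 4. Every treated library was far above every scramble library. The fold change was 30.4 in oAb (log2 4.92, SE 0.22, adjusted p = 1.11e-07) and 30.3 in fAb (log2 4.92, SE 0.20, adjusted p = 9.28e-08, edgeR). In oAb the log2 fold change was 4.66 within the Timm23 set (edgeR adjusted p = 0.000136) and 5.49 within the Gm10273 set. Only 1.99% of genes tested rose more than 16-fold with a call in oAb, and 1.96% in fAb.

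Bcl2a1d showed the same order. Its normalised CPM was 3.30, 3.13, 4.78 and 2.05 in scramble, 118, 135, 165 and 149 in oAb, and 129, 134, 134 and 132 in fAb, and the groups did not overlap. It rose 43.1-fold in oAb (log2 5.43, SE 0.24, edgeR adjusted p = 1.16e-07) and 41.2-fold in fAb (log2 5.36, SE 0.21, adjusted p = 7.50e-08). Because the copies share most of their sequence, their rows were also summed with those of the other A1 copies before testing, which gave log2 fold changes of 5.13 in oAb (edgeR adjusted p = 4.93e-08) and 5.10 in fAb (adjusted p = 3.35e-08). The rise of the summed rows therefore does not hang on how reads were divided among them. How far each copy rose on its own still does, and counts at Gm29094 were not in the sum. Bcl2a1b held 56.8 to 76.6% of the counts of the 2 copies in scramble, where these counts are few, 54.0 to 56.0% in oAb and 55.5 to 56.6% in fAb.

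Bcl2a1a, the other copy shown, had no count in any scramble library and 5 to 23 counts per library in oAb and 8 to 39 in fAb. Against a floor of 3 counts over the scramble group, that is at least 18.6-fold higher in oAb and at least 29.1-fold higher in fAb, with no test because it did not pass the filter. These are 51 and 89 counts in all, beside 8526 and 8840 at Bcl2a1d. Of the stretches of 50 bases in Bcl2a1a, 67.7% also occur in Bcl2a1d. A rise of Bcl2a1a itself thus cannot be told from reads of the other copies counted at it. Gm29094, whose exons overlap those of Bcl2a1b, had 0 to 39 counts per library in scramble, 75 to 158 in oAb and 128 to 153 in fAb. Its counts thus moved the same way, and they too cannot be told from reads of Bcl2a1b in the shared bases.

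Bcl2l1 (ENSMUSG00000007659, chr2:152780668-152831728, minus strand), which encodes BCL-XL, rose in both groups. Its normalised CPM was 26.5, 31.9, 39.6 and 33.5 in scramble, 116, 121, 123 and 134 in oAb, and 109, 104, 126 and 122 in fAb. The lowest treated library was above the highest scramble library by a wide margin. The fold change was 3.76 in oAb (95% interval 3.08 to 4.60, edgeR adjusted p = 1.98e-06) and 3.59 in fAb (2.90 to 4.43, adjusted p = 4.24e-06). In oAb the log2 fold change was 1.77 within the Timm23 set (adjusted p = 0.000541, edgeR) and 2.31 within the Gm10273 set.

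Mcl1 (ENSMUSG00000038612, chr3:95658788-95663176, plus strand) had the highest mean level of the 10 per length in every group. It was at 543, 549, 519.5 and 502 normalised CPM in scramble, at 1062, 1072, 1074 and 1011 in oAb, and at 1033, 1049, 999 and 1001 in fAb. The libraries of a group lay close together and the treated groups lay well above scramble. The fold change was 2.00 in oAb (95% interval 1.75 to 2.29, edgeR adjusted p = 9.50e-06) and 1.98 in fAb (1.75 to 2.25, adjusted p = 7.19e-06).

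Bcl2, the founding member (ENSMUSG00000057329, chr1:106538178-106714274, minus strand), did not pass the test. Its normalised CPM was 12.4, 11.7, 7.75 and 11.6 in scramble, 10.6, 10.7, 10.2 and 8.39 in oAb, and 10.3, 11.0, 9.77 and 10.1 in fAb, and the groups overlapped. The log2 difference was -0.12 in oAb (95% interval -0.50 to 0.25, edgeR adjusted p = 0.556) and -0.04 in fAb (-0.38 to 0.30, adjusted p = 0.825). These intervals leave out a change of the size seen in Mcl1, the smallest among the survival genes that rose.

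**Figure D2:**
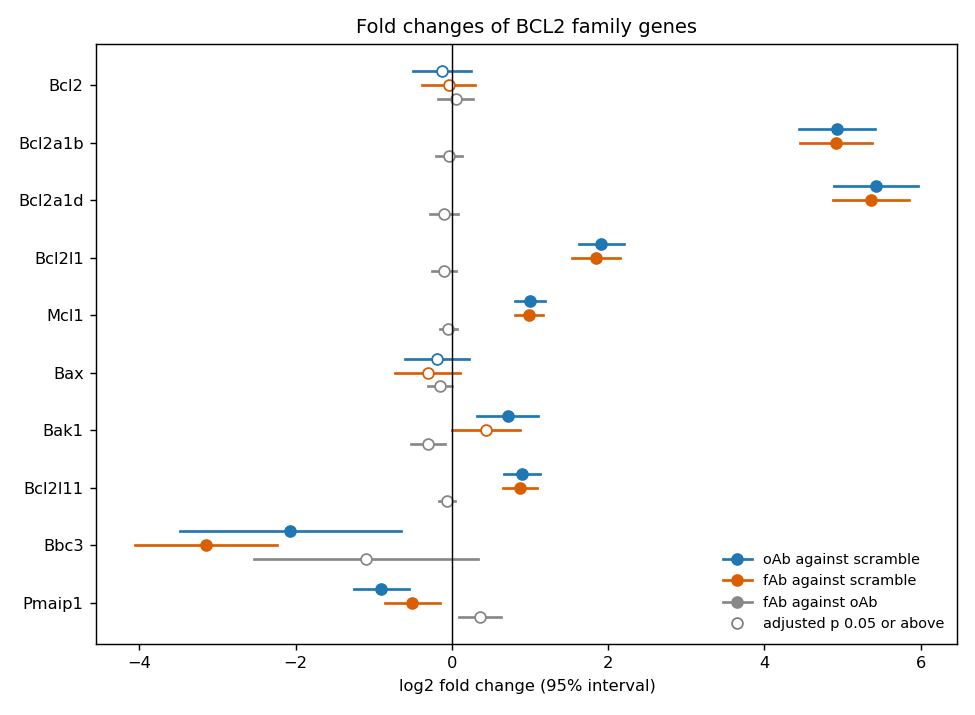
Log2 fold change (x axis) of each gene (y axis) in oAb against scramble, fAb against scramble and fAb against oAb, with 95% intervals from the edgeR fit. Filled points passed the adjusted threshold of 0.05. The values run from 5.43 for Bcl2a1d to -3.14 for Bbc3, and no point of fAb against oAb is filled.

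The effectors changed less. Bak1 (ENSMUSG00000057789, chr17:27019810-27029009, minus strand) was at 96.9, 127, 182 and 149 normalised CPM in scramble, at 230.5, 243, 209 and 226 in oAb, and at 169, 152, 205 and 211 in fAb. Every oAb library was above every scramble library, while fAb 1 and 2 lay within the scramble range. Bak1 rose 1.64-fold in oAb (log2 0.71, SE 0.17, edgeR adjusted p = 0.00650), with a log2 fold change of 0.64 within the Timm23 set (adjusted p = 0.0384) and 1.21 within the Gm10273 set, whose scramble library has the lowest Bak1 of all 12. In fAb the log2 difference was 0.44 (SE 0.19), which did not pass (adjusted p = 0.0783).

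That miss depended on the fit. With the replicate number as a block, Bak1 in fAb was 0.47 higher (edgeR adjusted p = 0.0213), though whether the numbers pair the libraries cannot be told. Without scramble 3, Bak1 was 0.61 higher (adjusted p = 0.0114, edgeR). Without scramble 1 it was 0.29 higher (adjusted p = 0.147, edgeR), and within the Gm10273 set, against scramble 1 alone, 0.99 higher. Over the 16 alternatives with more than 1 scramble library its adjusted p ran from 0.0114 to 0.268, and 4 passed. In its exons, 25.5% of the bases overlap Ggnbp1 on the other strand, a gene with only 3 to 24 counts in any library.

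Bax (ENSMUSG00000003873, chr7:45461697-45466898, minus strand) did not pass in either comparison. It was at 141, 157, 252 and 147 normalised CPM in scramble, at 154, 169, 139 and 147 in oAb, and at 133, 126, 139.8 and 149 in fAb. Scramble 3 was the only library above 169, and the groups overlapped. The log2 difference was -0.19 in oAb (95% interval -0.60 to 0.22, edgeR adjusted p = 0.411) and -0.31 in fAb (-0.73 to 0.11, adjusted p = 0.179). Without scramble 3 these became 0.04 and -0.07. Of its exonic bases, 12.2% overlap Gm45808 on the same strand, which had 0 to 65 counts per library. With upper quartile scaling, which shifts the median of all genes to -0.23 in fAb, the fAb difference of -0.50 passed (edgeR adjusted p = 0.0422, with 0.0422 to 0.355 over the 16 alternatives with more than 1 scramble library).

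The BH3-only genes split. Bcl2l11 (ENSMUSG00000027381, chr2:128126038-128162547, plus strand), which encodes BIM, rose, and Bbc3 and Pmaip1 fell. Bcl2l11 was at 42.4, 39.6, 33.5 and 42.7 normalised CPM in scramble, at 75.5, 71.3, 71.2 and 76.7 in oAb, and at 70.9, 67.9, 73.5 and 69.9 in fAb. The groups were widely apart. It rose 1.87-fold in oAb (log2 0.90, SE 0.10, edgeR adjusted p = 6.36e-05) and 1.83-fold in fAb (log2 0.87, SE 0.09, adjusted p = 4.88e-05).

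Bbc3 (ENSMUSG00000002083, chr7:16308393-16318205, plus strand), which encodes PUMA, a target of p53 and of FoxO factors, fell most among the 10. It was at 7.55, 26.0, 29.7 and 20.3 normalised CPM in scramble, at 8.15, 8.74, 1.51 and 1.53 in oAb, and at 2.26, 2.01, 2.49 and 2.43 in fAb. The counts behind these were 144 to 432 per scramble library, 23 to 124 in oAb and 36 to 40 in fAb. Scramble 1 lay below oAb 1 and 2, so oAb and scramble overlapped, whereas all fAb libraries were below all scramble libraries. The log2 fold change was -2.07 in oAb (SE 0.63, edgeR adjusted p = 0.0203) and -3.14 in fAb (SE 0.40, adjusted p = 0.000148).

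The level of Bbc3 followed the library sets as well as the treatment. In the Timm23 set it was at 20.3 to 29.7 normalised CPM in 3 scramble libraries and at 8.15 to 8.74 in 2 oAb libraries. In the Gm10273 set it was at 7.55 in the 1 scramble library, at 1.51 to 1.53 in 2 oAb libraries and at 2.01 to 2.49 in the 4 fAb libraries. In both sets each treated library was below each scramble library of the same set. Within the Timm23 set the oAb log2 fold change was -1.58 (edgeR adjusted p = 0.00336), and within the Gm10273 set, against its single scramble library, it was -2.27 in oAb and -1.65 in fAb. With the library set as a term the oAb value was -1.80 (edgeR adjusted p = 9.28e-05). Without scramble 3 the oAb value of -1.85 did not pass (adjusted p = 0.0851), and over the 18 alternatives in oAb with more than 1 scramble library the adjusted p ran from 9.28e-05 to 0.0851. What the library sets are was not tested.

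**Figure D3:**
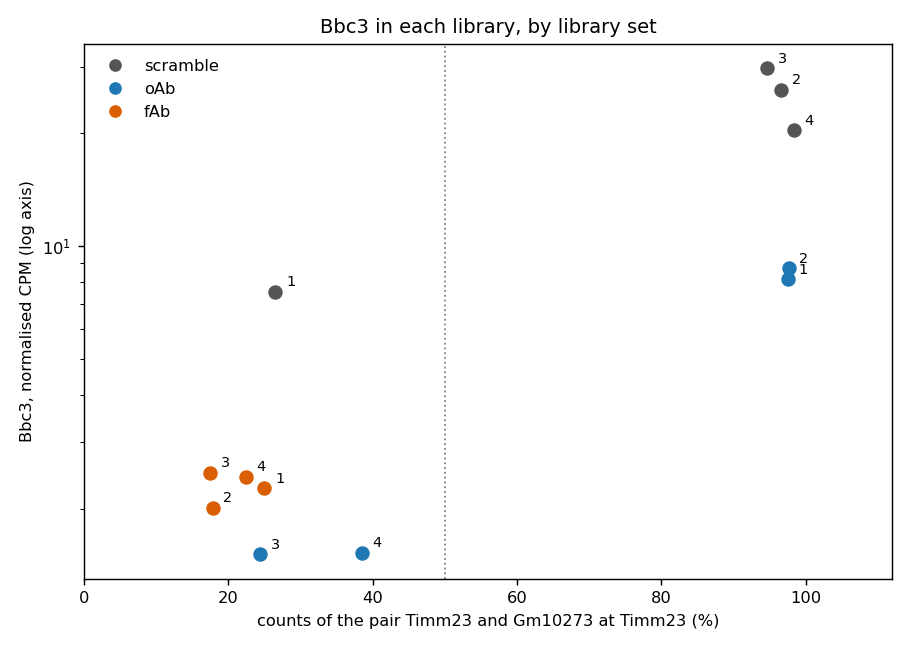
Bbc3 in normalised CPM (y axis, log scale) against the percentage of Timm23 and Gm10273 counts that fell at Timm23 (x axis), 1 point per library, numbered by replicate and coloured by group, with a dotted line at the 50% that divides the sets. On the right, scramble lies at 20.3 to 29.7 and oAb at 8.15 to 8.74. On the left, the single scramble library is at 7.55 and the 6 treated libraries lie between 1.51 and 2.49.

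Pmaip1 (ENSMUSG00000024521), which encodes NOXA, the BH3-only partner that binds MCL1 and promotes its removal, fell. Its normalised CPM was 16.6, 17.1, 11.4 and 14.2 in scramble, 8.68, 7.93, 6.69 and 8.39 in oAb, and 12.1, 9.94, 9.84 and 8.76 in fAb. All oAb libraries were below all scramble libraries, and fAb 1 alone was above the lowest scramble library. It was 1.87-fold lower in oAb (log2 -0.90, SE 0.16, edgeR adjusted p = 0.000988) and 1.42-fold lower in fAb (log2 -0.51, SE 0.16, adjusted p = 0.0206). The fAb call was lost without scramble 2, fAb 3 or fAb 4 (adjusted p = 0.0567, 0.0573 and 0.0643, edgeR).

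Bcl2l11 and Bbc3, which moved in opposite directions, each have a RefSeq promoter window that holds the forkhead motif TGTTTAC, the element of FoxO factors, which occurs on either strand in 3.65% of all windows. Of the 14 windows of the 9 genes that were searched, 1 each of Bcl2l11 and Bbc3 held it. The part of each window before the start is shown for that reason, with the match in capitals (on the minus strand it reads GTAAACA), at chr2:128125788-128126037 for Bcl2l11 and chr7:16310011-16310260 for Bbc3, both on the plus strand.
Bcl2l11: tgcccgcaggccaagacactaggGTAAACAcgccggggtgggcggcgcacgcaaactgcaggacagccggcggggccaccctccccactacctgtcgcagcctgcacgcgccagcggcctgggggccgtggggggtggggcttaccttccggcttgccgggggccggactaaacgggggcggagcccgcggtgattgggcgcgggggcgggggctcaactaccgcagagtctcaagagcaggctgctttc
Bbc3: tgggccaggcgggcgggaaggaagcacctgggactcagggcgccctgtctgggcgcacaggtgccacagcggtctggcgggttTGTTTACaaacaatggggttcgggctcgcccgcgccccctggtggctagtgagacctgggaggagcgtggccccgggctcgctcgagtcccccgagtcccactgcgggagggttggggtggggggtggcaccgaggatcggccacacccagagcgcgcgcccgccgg
Foxo3 and Foxo1, FoxO factors of the list below, and Trp53 of the same list, which encodes p53, are named here after their values were seen. Foxo3 fell 1.29 on the log2 scale in oAb (SE 0.11) and 1.40 in fAb (SE 0.12), with edgeR adjusted p-values of 1.30e-05 and 1.46e-05. Foxo1 fell by 0.61 in oAb and 0.37 in fAb (SE 0.13 and 0.12, edgeR adjusted p = 0.00402 and 0.0296). Trp53 fell too, by 0.34 in oAb and 0.40 in fAb (SE 0.10 and 0.11, edgeR adjusted p = 0.0201 and 0.0151). No binding was measured.

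Levels between genes can be compared per transcript length, as TPM. In scramble, Mcl1 was highest at 469 ± 74.4 TPM (SD, n = 4), followed by Bax at 325 ± 44.5, whose range of 290.3 to 389 overlapped that of Mcl1 at 370 to 532. Bak1 followed at 171 ± 25.2. Bbc3 (28.8 ± 12.0), Bcl2l1 (21.4 ± 1.55), Bcl2a1b (20.7 ± 4.02), Pmaip1 (17.3 ± 4.94), Bcl2l11 (15.1 ± 3.37) and Bcl2a1d (11.4 ± 2.76) formed an order in which each overlapped its neighbour. Bcl2 was lowest at 3.67 ± 1.10 TPM.

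With treatment the order changed, and both A1 copies passed the effectors. In oAb, Mcl1 was at 821 ± 32.1 TPM, Bcl2a1b at 562 ± 57.0 and Bcl2a1d at 437 ± 52.9, with no overlap between neighbours. The place of each A1 copy in the order is as uncertain as the split of counts between the copies. Bax at 257 ± 23.5 and Bak1 at 251 ± 18.1 overlapped, Bcl2l1 reached 71.6 ± 3.51 and Bcl2l11 24.4 ± 1.27. Pmaip1 (7.98 ± 1.01), Bbc3 (6.30 ± 5.11) and Bcl2 (2.90 ± 0.345) were lowest, and Bbc3 overlapped both. The order in fAb was the same down to Pmaip1 at 10.9 ± 1.84 TPM, with Mcl1 at 843 ± 57.2, Bcl2a1b at 581 ± 34.4 and Bcl2a1d at 432 ± 19.0, and Bcl2 (3.17 ± 0.291) and Bbc3 (3.04 ± 0.173) overlapped at the bottom.

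Summed over their roles, the 5 survival genes went from 527 ± 72.2 TPM in scramble to 1895 ± 91.9 in oAb and 1930 ± 104 in fAb. The effectors stood at 496 ± 57.5, 508 ± 41.3 and 459 ± 31.0 TPM, overlapping between groups. The 3 BH3-only genes went from 61.2 ± 11.4 to 38.7 ± 6.30 and 38.7 ± 2.60 TPM. Survival transcripts per effector transcript were thus 0.749 to 1.35 across scramble libraries, 3.34 to 4.40 in oAb and 3.73 to 4.90 in fAb. These sums are descriptions with no test, and transcripts per length are not amounts of protein.

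The make-up of the sums differed between the groups too. Mcl1 gave 88.9 ± 2.07% of survival TPM in scramble, 43.4 ± 3.25% in oAb and 43.6 ± 0.899% in fAb, while Bcl2a1b and Bcl2a1d together went from 6.25 ± 1.57% to 52.6 ± 3.32% and 52.5 ± 0.691%. The share of Bcl2l1 stayed between 3.24 and 4.90% in all 12 libraries. Among the BH3-only members alone, Bcl2l11 gave 18.5 to 34.9% of their TPM in scramble libraries, 55.5 to 73.2% in oAb and 61.0 to 66.2% in fAb. Bak1 per Bax went from 0.529 ± 0.0942 to 0.978 ± 0.0270 and 0.876 ± 0.0791.

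**Figure D4:**
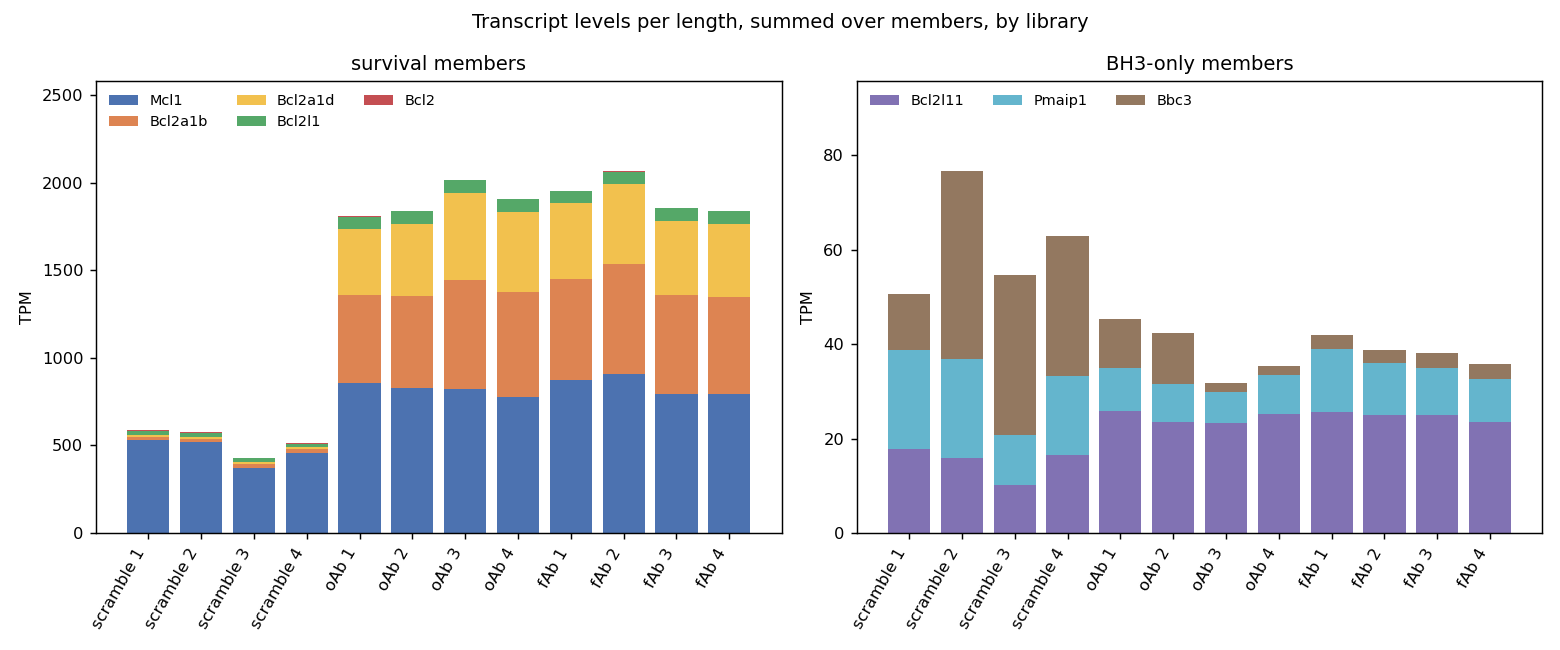
TPM (y axis, linear from 0) of the 5 survival genes (left) and the 3 BH3-only genes (right), stacked by gene, in each of the 12 libraries (x axis). Left, the scramble stacks reach 429 to 586 and are mostly Mcl1, and the treated stacks reach 1810.5 to 2066 with the A1 copies making up 48.8 to 55.6%. Right, the Bbc3 part shrinks and the Bcl2l11 part grows.

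The treatments were compared directly in fAb against oAb. No gene of 10878 tested passed in edgeR's quasi-likelihood test (0% called), none of the 10 among them, while 1391 genes had an unadjusted p under 0.05. DESeq2 called 15 genes and limma voom 0, none of the 10 in either. Bak1 (log2 -0.30, 95% interval -0.52 to -0.09, adjusted p = 0.375) and Pmaip1 (log2 0.36, 0.09 to 0.63, adjusted p = 0.375) were the members with an unadjusted p under 0.05. Pmaip1 was also the only member whose groups did not overlap, beside 6.31% of all genes. For the survival genes the intervals were narrow, from -0.20 to 0.13 for Bcl2a1b, from -0.29 to 0.08 for Bcl2a1d, from -0.25 to 0.05 for Bcl2l1 and from -0.16 to 0.06 for Mcl1. Bcl2l11 lay between -0.17 and 0.04, Bax between -0.31 and 0.00 and Bcl2 between -0.18 and 0.27. Bbc3 was the least certain, at -1.10 (-2.54 to 0.33), and within the Gm10273 set its direction turned, to 0.61 (edgeR adjusted p = 0.442).

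Other BCL2 family genes were sparse. Of 17 listed, 9 passed the filter against scramble. In oAb 3 rose and 3 fell, and in fAb 3 rose and 2 fell, with medians of -0.09 and -0.15. Over all genes tested, 25.2% were called higher and 27% lower in oAb, and 27.6% and 28.8% in fAb, with medians of -0.07 and -0.04. Bmf, a BH3-only gene linked to the cytoskeleton, was at 23.6 to 27.9 normalised CPM in scramble, 1.09 to 1.45 in oAb and 0.928 to 2.03 in fAb. It was 19.8-fold lower in oAb and 16.7-fold lower in fAb (log2 -4.31 and -4.06, edgeR adjusted p = 1.50e-08 and 2.76e-07), a greater fall than that of Bbc3. Bnip3, a mitophagy receptor, rose 4.19-fold and 4.09-fold (log2 2.07 and 2.03, adjusted p = 1.13e-07 and 1.11e-07, edgeR). Smaller rises were those of Bcl2l2, which encodes the survival protein BCL-W (log2 0.65 in oAb and 0.73 in fAb), and Bid, a BH3-only gene that joins death receptors to mitochondria (0.40 and 0.44). Bcl2l12 fell by 1.30 and 1.34 on the log2 scale, and Bnip3l, another mitophagy receptor, fell by 0.32 in oAb and was at -0.21 in fAb, which did not pass (edgeR adjusted p = 0.105).

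Upstream of the mitochondria, 6 of 10 tested death receptor pathway genes rose and none fell, in each treatment. Beside this, 25.2% of all genes tested were called higher and 27% lower in oAb, and 27.6% and 28.8% in fAb. Fas, a death receptor, rose with a log2 fold change of 4.76 in both (SE 0.14 in oAb and 0.13 in fAb, edgeR adjusted p = 8.66e-09 and 4.65e-09), and Tnfrsf1b, a TNF receptor without a death domain, by 3.82 and 3.76 (SE 0.11 and 0.11). The list's median was 0.76 in oAb and 0.93 in fAb, beside -0.07 and -0.04 over all genes tested. Downstream, 1 of 9 apoptosome and caspase genes rose and 2 fell in oAb, and 2 rose and 2 fell in fAb (medians 0.09 and 0.15). The initiator Casp8 rose by 0.84 in oAb and 0.89 in fAb on the log2 scale (SE 0.08 in both), and Casp6 fell by 1.21 and 1.18 (SE 0.15 in both).

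Of 10 tested genes for IAP proteins, which restrain caspases, and their antagonists, 3 rose and 1 fell in each treatment (medians 0.06 and 0.27). The shares over all genes tested were 25.2% higher and 27% lower in oAb and 27.6% and 28.8% in fAb, with medians of -0.07 and -0.04. Birc3, which encodes the NF-kappa B target cIAP2, rose by 1.69 in oAb and 1.78 in fAb on the log2 scale (SE 0.14 in both). Birc5, which encodes survivin and is expressed in dividing cells, fell by 1.13 in both (SE 0.13 and 0.14). Among 11 tested transcription factors known to act on BCL2 family genes, 4 rose and 3 fell in each (medians 0.21 and -0.02). Irf1, an interferon response factor, rose by 1.85 and 1.98 (SE 0.09 and 0.09), and Atf4, of the integrated stress response, by 2.19 and 2.18 (SE 0.13 and 0.11). Of 9 membrane partners and genes of Mcl1 turnover, 3 rose and 1 fell in each (medians 0.35 and 0.34). Fbxw7, part of a ubiquitin ligase that acts on MCL1, rose by 0.56 and 0.65 (SE 0.12 and 0.11), and Vdac3, a mitochondrial channel, by 0.46 and 0.48 (SE 0.11 and 0.10).

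**Figure D5:**
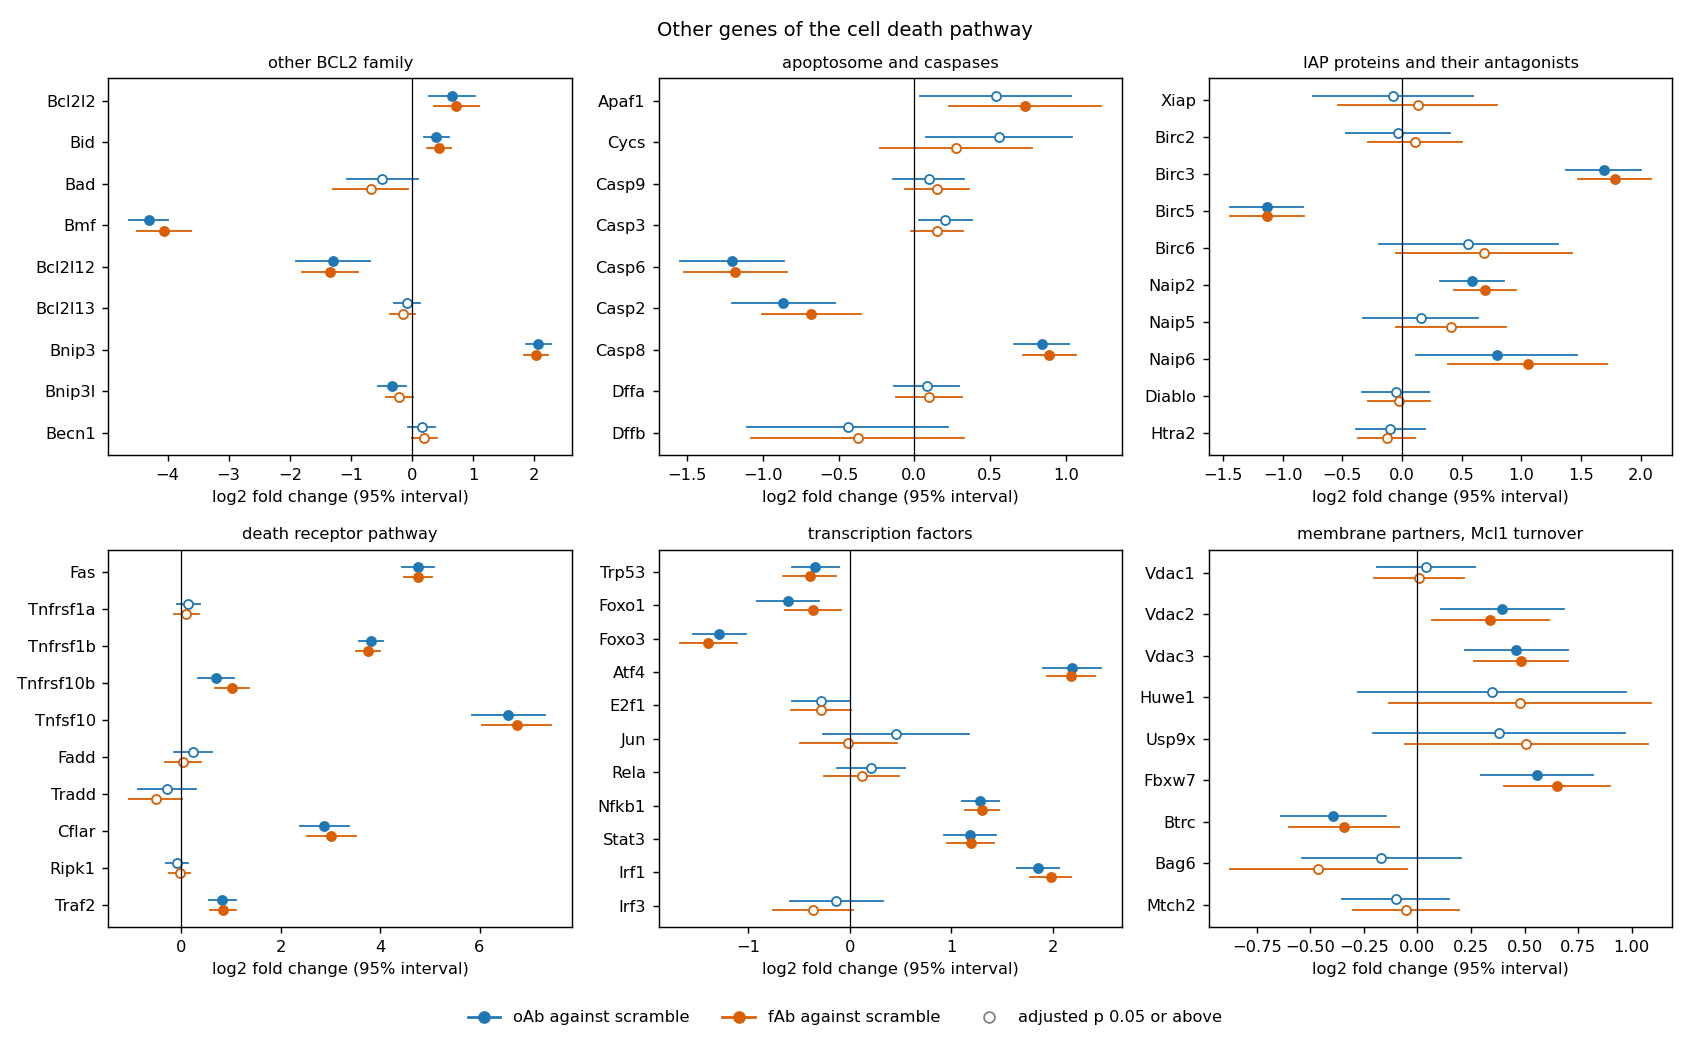
Log2 fold change (x axis) with 95% interval from edgeR for the tested genes of 6 other gene lists (y axis), in oAb and fAb against scramble, with filled points past the adjusted threshold of 0.05. Tnfsf10, of the death receptor list, lies highest, at 6.58 in oAb and 6.75 in fAb, with 0 to 1 count per scramble library. Fas and Tnfrsf1b lie at 3.76 to 4.76 and Bmf at -4.31 and -4.06. Of the 9 apoptosome and caspase genes, 6 did not pass in oAb and 5 in fAb. Of the 10 genes of the IAP list, 6 did not pass in each.

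The genes whose pattern over the 12 libraries was most like that of the gene of each role with the highest mean TPM over all 12 libraries were sought among 9761 genes, by Pearson correlation of log2 CPM. For Mcl1 they were Tnf, the cytokine (r = 0.997), and Cacybp (r = 0.997). Tnf was at a mean of 12.8 normalised CPM in scramble, 604 in oAb and 605 in fAb. For Bax they were Atp6v1f (r = 0.985) and Psmc3ip (r = 0.977), and for Bcl2l11 they were Siglec1 (r = 0.997), a sialic acid receptor of macrophages, and Adgrl2 (r = 0.996). Without scramble 3, r for Bax was 0.919 and 0.874. Over the 8 treated libraries alone, r was -0.47 for Mcl1 with Tnf and 0.837 with Cacybp, 0.928 and 0.937 for Bax, and 0.766 and 0.658 for Bcl2l11 with Siglec1 and Adgrl2. The points share 3 groups and their library sizes, and these are descriptions, with no p.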

How the data were processed

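Libraries came from a stranded mRNA kit, per the labels' protocols, and mm10 is the only build named, per the submitters' processing notes; no source used here names an aligner or a counter or says whether counting used strand. The authors deposited whole-number counts and TPM per gene, per the file headers, in 2 tables that share the controls; 32 other per-library columns were not used. Counts were tested with edgeR 4.0.16 (filterByExpr with a minimum count of 10, TMM, robust quasi-likelihood fit, 8 libraries per comparison, two-sided, Benjamini-Hochberg threshold 0.05) in R 4.3.3, with limma 3.58.1 and DESeq2 1.42.0 as alternatives. Normalised CPM divides counts by TMM-scaled library sizes over 12 libraries. On simulated data the test recovered 80.6%, 71.6% and 92.5% of 2-fold changes in oAb against scramble, fAb against scramble and fAb against oAb. Same-numbered fAb and scramble libraries deviated together, but weakly (r = 0.20, 0.17, 0.25 and 0.12). The best partners of fAb 1 to 4 were scramble 2, 1, 3 and 3, so whether the numbers pair these libraries cannot be told. Same-number r in the other comparisons did not always exceed 0.1. The members and lists were chosen with earlier results of these data known. Genes other than the 10 were named by rule. These were the genes with the 2 smallest adjusted p-values of each list and comparison and every called gene of the other BCL2 family list. The 2 best correlated genes per role were named as well. Foxo3, Foxo1, Trp53 and Tnfsf10 were added after their values were seen. Timm23, Gm10273, marker genes and genes overlapping or copying a member are named as checks. Ddit3 was not analysed here, and 1 gene of the apoptosome and caspase list is not reported here. Annotation came from GENCODE M21 and promoter windows from RefSeq (GRCm38.p6). Alternatives were 2 scalings, no filter, the 2 other tools, a replicate block, all 12 libraries, library set as a term, A1 rows summed and each library left out. Fits within each library set were added after seeing the data.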

Additional observations from a re-analysis of the deposited data

Results flagged for a closer look

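Bax in scramble library 3 lay far from the other libraries of its group, at 252 normalised CPM against 141 to 157, a gap of 0.858 of the group's range. It was the only one of 30 groups of 4 libraries (10 genes in 3 groups) with such a library, and chance flags about 5% of groups. The same library had 10.6% of its counts in ribosomal protein genes; the part this plays was not tested.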

How the results depend on the processing

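Bcl2a1b, Bcl2a1d, Bcl2l1, Mcl1 and Bcl2l11 kept direction and call against scramble under every alternative run, as did Bak1 and Pmaip1 in oAb and Bbc3 in fAb. In fits of fAb with the set as a term and of either treatment within the Gm10273 set, the comparison rests on scramble 1. Genes called fell to 3792 within the Timm23 set, which has fewer libraries, in oAb and to 3844 with the library set as a term in fAb, and DESeq2 called 15 in fAb against oAb. Upper quartile scaling gave 2127 higher and 4015 lower calls in oAb against 2777 and 2984, and 2273 and 4361 in fAb against 3051 and 3184. With each library left out, 4962 to 7174 genes were called in oAb and 5517 to 7598 in fAb, and 7 to 8 and 6 to 8 of the 10. Directions turned only for uncalled values. Bax turned to 0.061 within the Gm10273 set in oAb, to 0.014 with the set as a term and 0.023 within the Gm10273 set in fAb, and ran from -0.28 to 0.042 with libraries left out in oAb. Bcl2 turned to 0.046 within the Timm23 set in oAb, and ran from -0.17 to 0.0083 in fAb and from -0.031 to 0.095 in fAb against oAb with libraries left out. Bcl2a1b ran from -0.087 to 0.022 there, and Bbc3 turned to 0.60 with the set as a term and 0.61 within the Gm10273 set. With the replicate block, 8 of the 10 were called in fAb against scramble, with Bak1 gained and no other of the 10 changed. Whether the numbers pair the libraries there cannot be told. In oAb, where same-numbered libraries share only a number, the block gave 5081 genes and 7 of the 10, with Bbc3 at -2.26 (edgeR adjusted p = 0.0595). In fAb against oAb it gave 0 genes. Bak1 in fAb was also called with DESeq2 (0.47) and all 12 libraries (0.41). With the set as a term, where scramble 1 is the only control of the fAb libraries, Bak1 was at 0.98 and called, Pmaip1 at -0.65 and not called (edgeR adjusted p = 0.0612), and Bbc3 at -1.66. Depth limits Bbc3 most, at 23 to 40 counts in 6 treated libraries. In the simulation with 200 changed genes, the test recovered 7.46% of 1.5-fold changes in oAb against scramble and 23.9% in fAb. Far more genes were called in the data, so these rates do not give the recovery there.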
